A study of Mus musculus with 6 samples.

Results

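Cytosolic ribosomal protein genes were examined gene by gene in bulk RNA sequencing of 6 mouse melanomas. Members were taken by name and gene type: every protein-coding gene whose symbol is that of a small subunit protein (*Rps* and a number, or *Rpsa*) or a large subunit protein (*Rpl* and a number, or *Rplp0* to *Rplp2*), leaving out the *Rps6k* kinases and the mitochondrial *Mrp* genes. The rule gave 83 of the 40166 genes in the count table, 32 of the small and 51 of the large subunit. Of these, 81 were tested, those whose median count reached 5 in the vehicle or the RGS tumors. The other 2, *Rpl3l* and *Rpl39l*, paralogs known from striated muscle and testis, had 0 counts in all 6 tumors. A count of 0 allows up to 3 counts, which is 0.0856 to 0.226 CPM in these libraries (CPM, the unit of all levels here, scales counts to a common library size).

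All 6 tumors grew from YUMM3.3, a BRAF-mutant mouse melanoma cell line, injected under the skin of C57BL/6 mice. The 3 vehicle tumors (7, 8 and 9) came from mice given water, and the 3 RGS tumors (10, 11 and 12) from mice given rigosertib (RGS), a small molecule RAS mimetic, at 300 mg/kg. Both were given by oral gavage on 5 days a week, and tumors were taken after 17 days of treatment. The comparison asks which transcripts differ in the tumors after RGS. The labels give no age, and nothing in them says that each library is a separate animal, so p-values measure the spread between these 6 libraries.

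The libraries held 22793087 to 32555494 counts with vehicle and 13837932 to 21617368 with RGS. The paper describes the sequenced tumors as bulk tissue that holds tumor, stromal and immune cells. Of 7 melanocyte lineage markers, *Tyr*, *Dct* and *Mlana* were at 0 in every tumor, and the summed level of the list was 4.94 to 7.68 CPM with vehicle and 4.52 to 10.5 CPM with RGS. Of 12 leukocyte markers, 8 were at 0 throughout, *Ptprc*, *Cd3e* and *Cd8a* among them, and the list summed to 59.4 to 64.7 and 65.4 to 87.9 CPM. Nearly all of that sum was *Cd68*, the 1 marker of the list that was tested. *Cd68* was at 58.8 to 64.6 CPM with vehicle and 65.3 to 87.7 CPM with RGS, and was not called (log2 fold change 0.24, adjusted p = 0.293 by edgeR). Fibroblast markers summed to 397 to 583 CPM with vehicle and 290 to 319 CPM with RGS (3 of 6 tested lower, 1 higher), and endothelial markers to 0.946 to 1.198 and 3.24 to 11.2 CPM (1 of 3 tested higher). The 4 hemoglobin genes were at 0, and *Alas2*, the other erythroid marker, at 0 with vehicle and at most 0.734 CPM with RGS, and called higher. Muscle, keratinocyte and germ cell lists summed to at most 10.6, 2.56 and 1.16 CPM in any tumor, with no gene called in either direction. With 8 of 12 leukocyte markers and all 4 hemoglobin genes at 0, the counts show little of the immune cells or blood of bulk tumor tissue. Which cells the libraries came from was not tested, nor was the part of these cell types in the results below.

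The ribosome reads mRNA on its small subunit and joins amino acids on its large subunit, and each subunit is a scaffold of ribosomal RNA dressed with the proteins encoded by these genes. Most of the proteins are needed in a single copy per ribosome, and growing tumors make them in bulk. Their mRNAs typically start with a cytosine followed by a run of pyrimidines, the 5′ terminal oligopyrimidine (TOP) tract, through which mTOR signaling and the protein LARP1 govern their translation and stability. Some ribosomal proteins also act outside the ribosome, such as RPL5 and RPL11, which bind the p53 ubiquitin ligase MDM2 when ribosome assembly is disturbed.

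The RefSeq promoter of each member (GRCm38.p6, 250 bases before to 50 after the annotated start) was searched for a pyrimidine run near the start. The search took a C followed by at least 5 pyrimidines on the transcribed strand, with that C between position -10 and 40 from the start. The table held 75 promoters of 63 members. The run was in 55 of them (73.3%), against 36.2% of all 32851 promoters of the same length. A run near an annotated start is a description and not a mapped cap site. The sequences below are the 3 members with the lowest log2 fold changes that have the run, *Rps6*, and the 3 with the highest. Each is written 5′ to 3′ on the transcribed strand, with capitals from the first C that met the search to the end of the run. They lie at chr3:28805501-28805530 (plus strand), chr5:65391382-65391410 (minus), chr17:28328452-28328481 (plus), chr4:86857349-86857378 (minus), chr11:97782402-97782431 (minus), chr17:27635228-27635257 (minus) and chr12:69184019-69184048 (minus), in the order shown.
Rpl22l1: caagcccgttCTCTTCCCacggctgcagct
Rpl9: gaaagacgttCTCTCTTTgccccatctac
Rpl10a: cgtggtggcgCCCCCCCagcggccgcaaac
Rps6: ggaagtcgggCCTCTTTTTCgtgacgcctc
Rpl23: gtgggcggggCCTCCCgttcatatcccagt
Rps10: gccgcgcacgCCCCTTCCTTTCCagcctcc
Rpl36al: ctctgttcgtCCCTTTCCTgttcggcgcgt
Counted from the first capital, runs of 6 to 13 bases thus stood at both ends of the order of fold changes. In the order shown, the first capital lay at position 4, 32, -9, -1, 19, -3 and 30 from the annotated start. Several runs were thus away from that start, and none is shown to be a TOP tract. In *Rpl22l1*, *Rpl9* and *Rpl36al*, T bases directly before the capitals are pyrimidines as well. The 49 tested members with a run had a median log2 fold change of -1.02 (36 lower), and the 12 with a promoter but no run had one of -0.77 (8 lower). The core motif of ETS factors such as GABP, CCGGAAG on either strand, was in 36.0% of the members' promoters and 8.86% of all promoters, and AAGATGG, the core of the YY1 motif, on either strand in 12 of the 75 and in 6.34% of all promoters.

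Ribosomal protein mRNAs took a smaller share of the counts in RGS tumors. The 83 genes made up 5.66%, 8.39% and 10.2% of all counts in vehicle tumors 7, 8 and 9, and 3.15%, 3.30% and 3.68% in RGS tumors 10, 11 and 12. The groups did not overlap, and the vehicle tumors differed more among themselves than the RGS tumors did. The mean share was 8.09% ± 2.29 with vehicle and 3.37% ± 0.272 with RGS (SD, n = 3 each), 2.40 times higher with vehicle. An exact permutation test, two-sided, gave p = 0.1, the smallest that 3 against 3 tumors allow. Wilson 95% intervals ran from 5.65% to 5.67% in tumor 7 and from 3.14% to 3.15% in tumor 10, and cover counting error only. From bulk RNA, fewer cells of a type and less RNA per cell cannot be told apart.

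**Figure D1:**
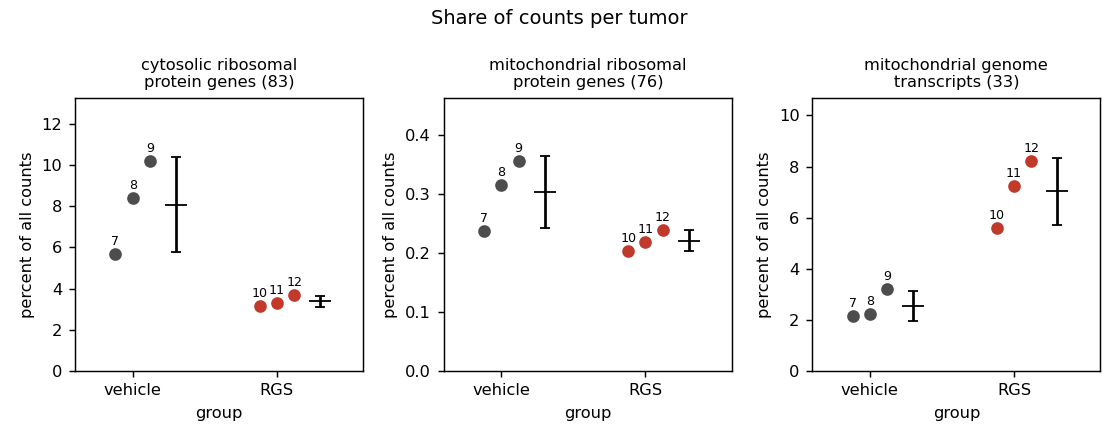
Percent of all counts (y axis) in each of the 6 tumors, by group (x axis), for the 83 cytosolic ribosomal protein genes, the 76 mitochondrial ribosomal protein genes and the 33 mitochondrial genome transcripts. Points are tumors labelled by number, horizontal ticks are means and bars are ± 1 SD. All RGS tumors lie at 3.15% to 3.68% in the first panel, under the 5.66% of the lowest vehicle tumor.

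The smaller share was spread over many genes. Of the 81 tested members, 62 were lower with RGS at an adjusted p under 0.05 (76.5%), against 16.5% of all 15355 tested genes. None was higher, against 16.3% of all genes (edgeR quasi-likelihood test, Benjamini-Hochberg adjustment over all genes). At an unadjusted p under 0.05, 69 members were lower and 0 higher. At an adjusted p under 0.05, DESeq2 and limma voom with quality weights (limma voom below) also called 0 higher, with 61 and 75 lower. A fall of at least 2-fold was seen in 41 members (50.6%), against 9.44% of all genes. The median log2 fold change was -1.01 over the members (quartiles -1.35 and -0.61) and -0.05 over all tested genes (quartiles -0.72 and 0.56). The 19 members that did not pass the test included 16 with a log2 fold change below 0.

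In 56 of the 81 members (69.1%) all RGS tumors lay under all vehicle tumors, against 24.1% of all genes. No member had every RGS tumor above every vehicle tumor, a pattern seen in 21.7% of all genes. The groups of 7 called members overlapped: *Rpl35*, *Rps21*, *Rpl39*, *Rps15*, *Rpl7a*, *Rpl15* and *Rpl36a*. *Rps2* was the one member without overlap that was not called.

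The vehicle tumors held a fixed order. Tumor 7 was the lowest vehicle tumor in 81 of 81 members, and tumor 8 lay between 7 and 9 in 78 (96.3%), against 23.2% of all genes with that order. The order was also seen in 69.3% of the 75 tested mitochondrial ribosomal protein genes and in 58.8% of 17 other TOP mRNAs. The exceptions were *Rps29*, *Rps28* and *Rpl4*. The level in tumor 9 was a median of 1.999 times that in tumor 7 (1.09 to 3.81 over the members), about the size of the difference between the groups, whose median fold was 2.01. Tumor 7 was a median of 1.16 times the highest RGS tumor. Among RGS tumors, 12 was the highest in 73 members, and the highest was a median of 1.40 times the lowest. Tumor 7 had the largest total and tumor 9 the smallest of the vehicle libraries. With all libraries thinned to the smallest total, the same number of members, 62, was lower. Without tumor 7, 73 members were lower with a median log2 fold change of -1.23, without tumor 9 57 were lower with a median of -0.81, and without RGS tumor 12 74 were lower with a median of -1.22.

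**Figure D2:**
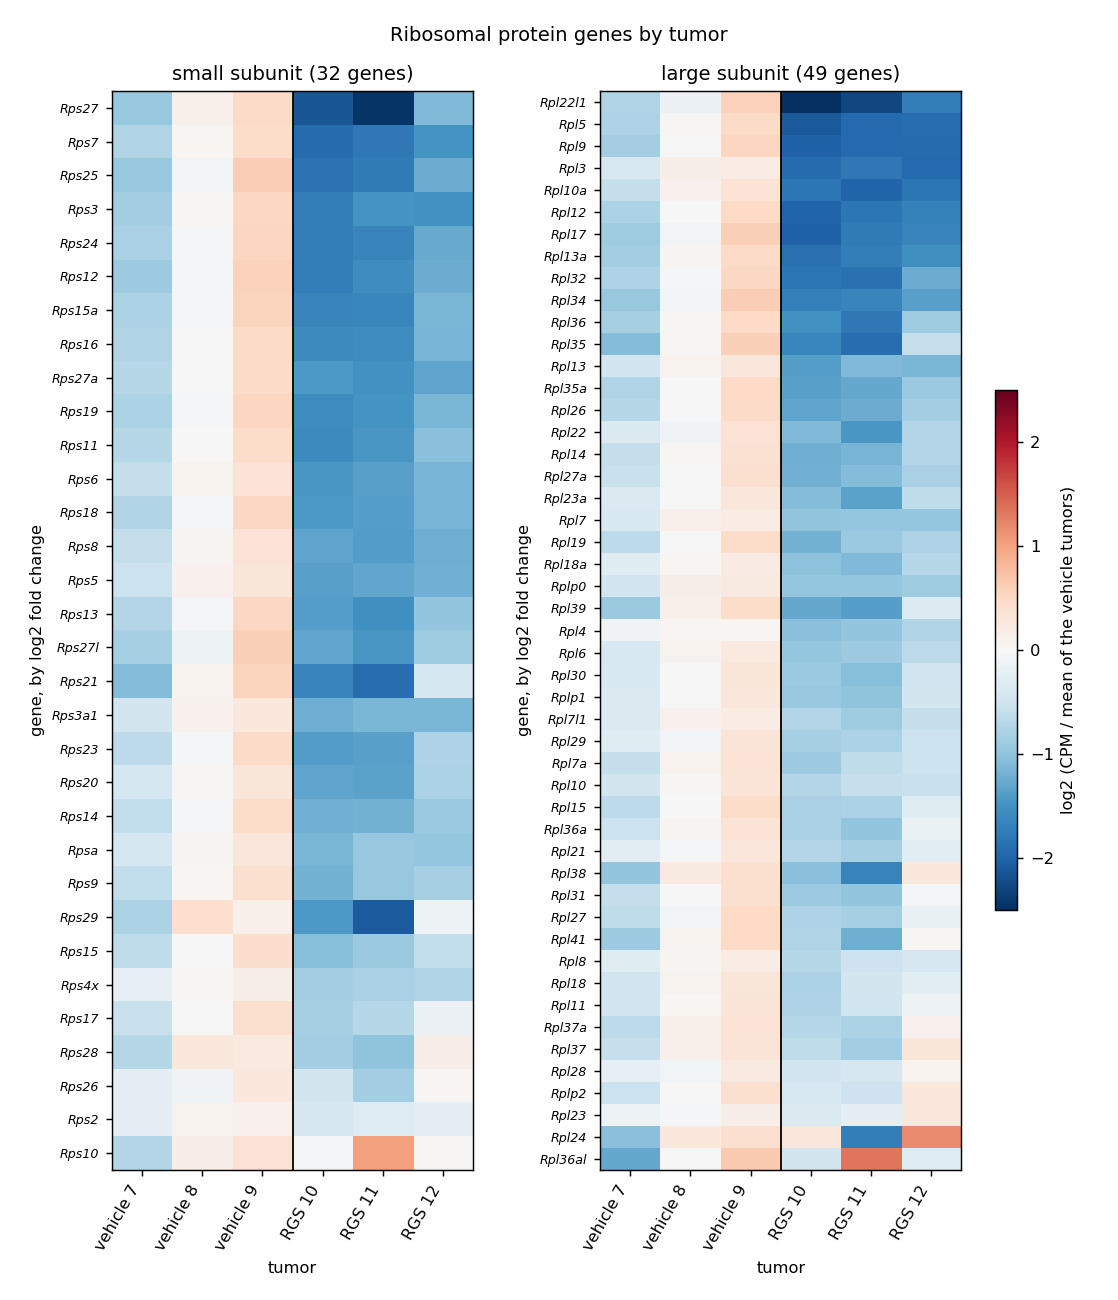
Expression of the 81 tested members in each tumor (columns), as log2 of CPM over the mean of the 3 vehicle tumors (color, blue below and red above), with genes (rows) ordered by log2 fold change within the small and large subunits. Blue fills the 3 RGS columns in most rows, vehicle tumor 7 is paler or bluer than 8 and 9, and the last rows (*Rps10*, *Rpl24*, *Rpl36al*) mix blue and red.

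The 5 members with the lowest log2 fold changes belong to the large subunit. *Rpl5* (ENSMUSG00000058558.12, chr5:107900502-107909005, GRCm38), whose protein carries the small ribosomal RNA of the large subunit into the ribosome, was at 1962, 3437 and 4706 CPM in vehicle tumors 7, 8 and 9 and at 787, 872 and 898 CPM in RGS tumors 10, 11 and 12. Every RGS tumor was less than the lowest vehicle tumor, and the log2 fold change was -1.98 ± 0.226 (SE), with an adjusted p of 2.43e-06 by edgeR. *Rpl3* (ENSMUSG00000060036.14, chr15:80077791-80091868), a protein near the peptidyl transferase center, was at 2224, 3277 and 3355 CPM with vehicle and 773, 850.0 and 771 CPM with RGS. Its SE was the smallest of these 5 members, with a log2 fold change of -1.89 ± 0.171 and an adjusted p of 1.44e-07. *Rpl9* was at 829, 1519 and 2177 CPM with vehicle and 374, 394 and 396 CPM with RGS (log2 fold change -1.96 ± 0.239). *Rpl10a* was at 720, 1183 and 1384 CPM with vehicle and 315, 272 and 311 CPM with RGS (log2 fold change -1.87 ± 0.199). In both, the RGS tumors lay close together and well under vehicle tumor 7.

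The lowest log2 fold change of all was that of *Rpl22l1* (ENSMUSG00000039221.10, chr3:28805436-28807424), a paralog of *Rpl22*. It was at 49.9, 76.6 and 126.1 CPM in vehicle tumors 7, 8 and 9 and 12.7, 17.4 and 25.3 CPM in RGS tumors 10, 11 and 12, without overlap (log2 fold change -2.19 ± 0.292, adjusted p = 1.41e-05 by edgeR). Of the length of its principal mRNA, 28.8% is overlapped by a gene on the opposite strand. Of *Rpl5*, 46.6% is overlapped in the same way by *Fam69a*. How the counting treated strand is not given in the sources used here.

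In the small subunit, 26 of 32 genes were lower (81.25%, against 76.5% of all tested members and 16.5% of all genes). A fall of at least 2-fold was seen in 23 (71.9%, against 50.6% and 9.44%), and the median log2 fold change was -1.24. *Rps3* (ENSMUSG00000030744.13, chr7:99477896-99483738), a protein at the mRNA entry channel that also acts in DNA repair, was 1 of the 3 members with the highest mean CPM, with *Rplp0* and *Rpl5*. It was at 1956, 3657 and 5146 CPM in vehicle tumors 7, 8 and 9 and at 1085, 1278 and 1251 CPM in the RGS tumors (log2 fold change -1.57 ± 0.238, adjusted p = 5.32e-05). No 100-base stretch of its mRNA occurs in another annotated gene. *Rps6*, the substrate of S6 kinase downstream of mTOR, was at 908, 1462 and 1730 CPM with vehicle and 497, 530.1 and 608 CPM with RGS (log2 fold change -1.33 ± 0.196). *Rps7* was the lowest in fold change after *Rps27*, at 1410 to 3242 CPM with vehicle and 621 to 847 CPM with RGS (log2 fold change -1.72 ± 0.226). *Rps24* was at 919 to 2343 CPM with vehicle and 485 to 670.4 CPM with RGS (log2 fold change -1.53 ± 0.241). *Rpsa*, which is also the laminin receptor, was at 2035 to 3346 CPM with vehicle and 1257 to 1440 CPM with RGS (log2 fold change -1.01 ± 0.173).

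In the large subunit, 36 of 49 tested genes were lower (73.5%, against 76.5% of all tested members and 16.5% of all genes). A fall of at least 2-fold was seen in 18 (36.7%, against 50.6% and 9.44%), and the median log2 fold change was -0.92. The share of counts was 3.36% ± 1.04 with vehicle and 1.35% ± 0.0969 with RGS for the small subunit, and 4.73% ± 1.25 and 2.02% ± 0.175 for the large subunit (exact permutation p = 0.1 for each, n = 3). The log2 ratio of small to large subunit counts was -0.51 ± 0.0719 with vehicle and -0.58 ± 0.0215 with RGS. The groups overlapped, and the difference of -0.07 was not past the spread between tumors (exact permutation p = 0.3). Its size depends on the summary. It was -0.12 with counts per mRNA length, -0.28 without the 10 most abundant members and -0.54 as the difference of the median log2 CPM of the subunits, each with an exact p of 0.1 and without overlap.

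**Figure D3:**
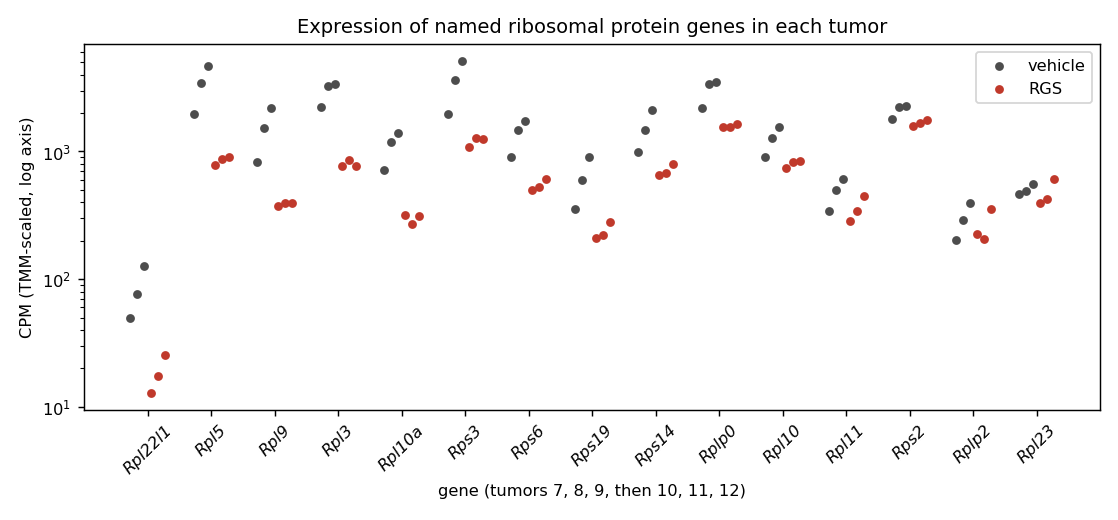
CPM (y axis, log scale) of 15 named members (x axis) in each tumor. Gray points are vehicle tumors 7, 8 and 9 and red points RGS tumors 10, 11 and 12, from left to right. The colors separate from *Rpl22l1* to *Rpl10* and in *Rps2*, and overlap in *Rpl11*, *Rplp2* and *Rpl23*.

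The stalk of the large subunit recruits the translation factors that use GTP. Its base, RPLP0 and RPL12, and its arms, RPLP1 and RPLP2, were lower in 3 of 4 genes, with a median log2 fold change of -0.86. That share of 75% was close to the 76.5% of all tested members, against 16.5% of all genes. *Rplp0*, often used as a reference gene in quantitative PCR, was at 2172, 3359 and 3518 CPM in vehicle tumors 7, 8 and 9 and 1550.3, 1541 and 1634 CPM in RGS tumors 10, 11 and 12 (log2 fold change -0.94 ± 0.173, adjusted p = 3.72e-04 by edgeR). *Rpl12* was at 1797, 3124 and 4380 CPM with vehicle and 775, 889 and 962 CPM with RGS (log2 fold change -1.82 ± 0.230). Of the arms, *Rplp1* was at 600.2, 775 and 943 CPM with vehicle and 402, 387 and 559 CPM with RGS, without overlap (log2 fold change -0.78 ± 0.184). *Rplp2* was at 204, 293 and 394 CPM with vehicle and 226, 206 and 357 CPM with RGS, fully overlapping (log2 fold change -0.17 ± 0.222, adjusted p = 0.594 by edgeR). The difference between the arms was not tested, and without vehicle tumor 9 the value for *Rplp2* was 0.09.

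At the exit of the large subunit, nascent chains pass the tunnel proteins RPL4, RPL17 and RPL39, all 3 of which were lower (median log2 fold change -0.92). *Rpl4* varied little across vehicle tumors, at 2096, 2288 and 2285 CPM, and at 1078, 1125 and 1327 CPM with RGS (log2 fold change -0.92 ± 0.148, adjusted p = 1.07e-04 by edgeR). *Rpl17* was at 1360 to 3769 CPM with vehicle and 614 to 782 CPM with RGS (log2 fold change -1.82 ± 0.251). Of the 5 proteins at the rim of the tunnel, which dock chaperones and the secretory machinery, 4 were lower and *Rpl31* was not called (median -0.99). Beside these small lists, 76.5% of all tested members and 16.5% of all genes were lower. *Rpl26* among them was at 576, 926 and 1313 CPM with vehicle and 375, 396 and 514 CPM with RGS (log2 fold change -1.13 ± 0.224). *Rpl8*, in the core of the large subunit, was at 1678, 2179 and 2339 CPM with vehicle and 1257, 1450 and 1550.0 CPM with RGS (log2 fold change -0.54 ± 0.160, adjusted p = 0.0140). Its difference was among the smaller ones called, and it missed the threshold without vehicle tumor 8 (-0.49) and without RGS tumor 10 (-0.47).

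RPL5 and RPL11 act together outside the ribosome. *Rpl11* was at 343, 501 and 604 CPM in vehicle tumors 7, 8 and 9 and at 283, 344 and 445 CPM in the RGS tumors. The groups overlapped, and the log2 fold change was -0.43 ± 0.199 (adjusted p = 0.103 by edgeR). It passed the test without vehicle tumor 7 (-0.63), without RGS tumor 12 (-0.65), with limma voom (-0.51), with library size alone (-0.57) and without the filter on low counts (-0.44). No test of the difference between *Rpl5* and *Rpl11* was made. Of 8 genes whose proteins are described as MDM2 binders, 6 were lower, all of them at least 2-fold (median -1.16), among them *Rps14* and *Rps27l*. The 75% lower was close to the 76.5% of all tested members, against 16.5% of all genes. A fall of at least 2-fold was seen in 50.6% of the members and 9.44% of all genes. Besides *Rpl11*, the MDM2 binder not called was *Rpl23*, at 462, 491 and 560.2 CPM with vehicle and 393, 425 and 606 CPM with RGS. Its highest tumor was RGS tumor 12, and its log2 fold change was -0.09 ± 0.172 (adjusted p = 0.743 by edgeR) and 0.03 without RGS tumor 10.

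Genes mutated in ribosomopathies were mixed. Of 17 genes linked to Diamond-Blackfan anemia, an inherited failure of red cell production, 8 were lower (47.1%), 0 higher and 9 not called. Their median log2 fold change was -0.61. Of all tested genes, 16.5% were lower and 16.3% higher, and of the 81 tested members 76.5% were lower. *Rps19*, the gene most often mutated in that disease, was at 355, 597 and 902 CPM in vehicle tumors 7, 8 and 9 and at 209, 220.1 and 281 CPM in RGS tumors 10, 11 and 12 (log2 fold change -1.38 ± 0.240, adjusted p = 2.06e-04 by edgeR). *Rps26*, another of them, was at 220, 242 and 309 CPM with vehicle and 187, 142 and 264 CPM with RGS, overlapping (log2 fold change -0.38 ± 0.199, adjusted p = 0.156). It passed without vehicle tumor 7 (-0.48), without RGS tumor 12 (-0.66), with limma voom (-0.44) and with library size alone (-0.52). *Rps14*, lost with the long arm deletion in a myelodysplastic syndrome, was at 994, 1467 and 2104 CPM with vehicle and 660, 673 and 800.2 CPM with RGS (log2 fold change -1.10 ± 0.207). *Rpl10*, mutated in T cell leukemia, lies on the X chromosome and was at 905, 1273 and 1552 CPM with vehicle and 747, 833 and 847 CPM with RGS (log2 fold change -0.62 ± 0.177, adjusted p = 0.0113). It missed the threshold without vehicle tumor 9 (-0.43) and without RGS tumor 10 (-0.57).

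All 4 X-linked members were lower, with a median log2 fold change of -0.71 and none at least 2-fold. Over all tested members, 76.5% were lower and 50.6% at least 2-fold, against 16.5% and 9.44% of all genes. *Rps4x* was at 1346, 1598 and 1716 CPM in vehicle tumors 7, 8 and 9 and at 862, 885 and 924 CPM in RGS tumors 10, 11 and 12 (log2 fold change -0.80 ± 0.149, adjusted p = 4.03e-04 by edgeR). *Rpl36a* was the called member closest to the threshold, at 69.8, 105 and 128 CPM with vehicle and 57.4, 51.1 and 89.7 CPM with RGS, with overlap. Its log2 fold change was -0.61 ± 0.226 (adjusted p = 0.0451). The call was lost without vehicle tumor 8 (-0.57) or 9 (-0.40) and without RGS tumor 10 (-0.52) or 11 (-0.47). It was also lost with RLE factors, with filterByExpr and with a filter of 1 CPM in 3 tumors (adjusted p of 0.0523, 0.0531 and 0.0513 by edgeR).

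Paralogs replace or accompany their parent protein in some tissues. Among the 4 with counts 3 were lower (75%, against 76.5% of all tested members and 16.5% of all genes). The ratio of *Rpl22l1* to *Rpl22* counts was 0.198, 0.252 and 0.302 in vehicle tumors 7, 8 and 9 and 0.0843, 0.147 and 0.130 in RGS tumors 10, 11 and 12, without overlap. *Rpl22* itself was at 251, 304 and 417 CPM with vehicle and 151, 119 and 195 CPM with RGS (log2 fold change -1.06 ± 0.200, adjusted p = 4.51e-04 by edgeR). The log2 ratio differed by -1.08. The ratio of *Rps27l*, a p53 target in other cells, to *Rps27* was 0.859, 0.668 and 0.865 with vehicle and 1.43, 1.58 and 0.910 with RGS. *Rps27* was at 62.0, 129 and 166 CPM with vehicle and 26.9, 21.8 and 55.7 CPM with RGS (log2 fold change -1.77 ± 0.321). *Rps27l* was at 53.3, 86.2 and 143 CPM with vehicle and 38.3, 34.5 and 50.7 CPM with RGS (log2 fold change -1.19 ± 0.264). The ratio was thus higher with RGS, by 0.68 on the log2 scale, while both genes were lower.

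The ratio of *Rpl7l1*, a nucleolar assembly factor, to *Rpl7* was 0.103, 0.0983 and 0.102 with vehicle and 0.120, 0.107 and 0.129 with RGS, higher by 0.23 on the log2 scale without overlap. *Rpl7* was at 1259.8, 1807 and 1864 CPM with vehicle and 828, 837 and 846 CPM with RGS (log2 fold change -0.97 ± 0.164), and *Rpl7l1* at 129.7, 178 and 189 CPM and 99.5, 89.7 and 109 CPM (log2 fold change -0.73 ± 0.171). The ratio of *Rpl36al* to *Rpl36a* ranged from 0.00776 to 0.0161 with vehicle and from 0.0116 to 0.0648 with RGS and overlapped. Over the 4 pairs compared, exact permutation p-values were 0.1 for the first 3, the smallest possible, and 0.4 for the last, or 0.133 and 0.4 after Benjamini-Hochberg adjustment, so no pair passed. Nearly all of the *Rps27* mRNA, 98.4% of its 100-base windows, also occurs in another annotated gene, against 0 for *Rps27l*. How reads that fit several genes were counted is not given in the sources used here, so levels of members with near-identical copies are uncertain. *Rpl10l* and *Rps4l*, listed with the paralogs, were not analysed here as members: the first has no row, and the row of the second is a processed pseudogene.

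**Figure D4:**
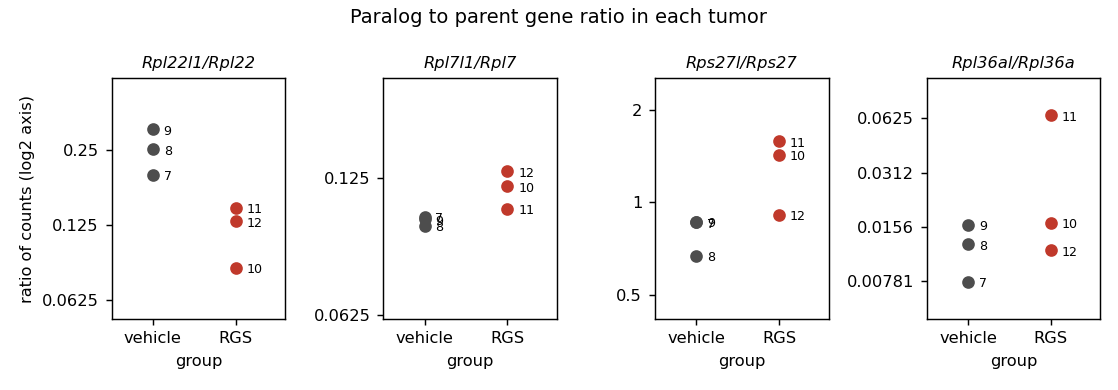
Ratio of paralog to parent gene counts (y axis, log2 scale) in each tumor by group (x axis), for the 4 pairs with counts. Points are tumors labelled by number, gray for vehicle and red for RGS. *Rpl22l1/Rpl22* is lower in all 3 RGS tumors, *Rpl7l1/Rpl7* and *Rps27l/Rps27* are higher in all 3, and *Rpl36al/Rpl36a* overlaps.

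Of the 19 members that were not called, the 16 with a log2 fold change below 0 had vehicle means from 18.8 CPM (*Rps29*) to 2090.5 CPM (*Rps2*). *Rps2*, next to *Rps3* at the mRNA entry, was at 1785, 2236 and 2249.7 CPM in vehicle tumors 7, 8 and 9 and at 1572, 1666 and 1755 CPM in RGS tumors 10, 11 and 12. The groups did not overlap, but the log2 fold change of -0.33 ± 0.149 did not pass (adjusted p = 0.0999 by edgeR). It passed without vehicle tumor 7 (-0.43), with limma voom (-0.40), with library size alone as the scaling (-0.47) and with an offset for mRNA length (-0.32). *Rpl28* was at 551, 606 and 739 CPM with vehicle and 452, 475 and 668 CPM with RGS (log2 fold change -0.25 ± 0.174). Several short mRNAs showed a wide spread. *Rpl41*, the smallest ribosomal protein, was at 64.4, 128 and 170.4 CPM with vehicle and 71.9, 51.9 and 124 CPM with RGS (log2 fold change -0.55 ± 0.294). *Rps29* was at 10.8, 25.04 and 20.5 CPM with vehicle and 6.91, 4.44 and 17.3 CPM with RGS (log2 fold change -0.97 ± 0.404, adjusted p = 0.0729). *Rpl38* was at 10.7, 24.8 and 27.8 CPM with vehicle and 10.2, 6.63 and 25.3 CPM with RGS (log2 fold change -0.58 ± 0.400). In these last 3, RGS tumor 12 lay among the vehicle tumors, and without it each passed the test, at -0.99, -1.73 and -1.34. With all 6 tumors, *Rpl41* (-0.77), *Rps29* (-1.54) and *Rpl38* (-1.03) also passed with limma voom. *Rpl41* and *Rps29* passed without the filter on low counts and without vehicle tumor 7 (-0.85 and -1.25), and *Rps29* with library size alone (-1.12).

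The 3 members with log2 fold changes above 0, none of them called, were also the 3 with the lowest vehicle means among tested members. *Rps10* was at 3.48, 6.41 and 7.35 CPM in vehicle tumors 7, 8 and 9 and 5.63, 11.7 and 5.87 CPM in RGS tumors 10, 11 and 12 (log2 fold change 0.43 ± 0.418, adjusted p = 0.468 by edgeR). *Rpl24* had 21, 42 and 38 counts with vehicle and 32, 5 and 46 with RGS (log2 fold change 0.34 ± 0.953). *Rpl36al* had 19, 37 and 48 counts with vehicle and 20, 44 and 17 with RGS (log2 fold change 0.43 ± 0.916). In all 3 the groups overlapped, and the sign turned without 1 RGS tumor: -0.0067 for *Rps10* and -0.40 for *Rpl36al* without tumor 11, and -0.39 for *Rpl24* without tumor 12. Their principal mRNAs are overlapped on the same strand by another annotated gene, over 91.6% of *Rps10* (by *RPS10-NUDT3*), 71.5% of *Rpl24* (by *Gm28037*) and 63.1% of *Rpl36al* (by *Gm49383*). Reads in such stretches fit both genes, and the part of the overlap in these levels was not tested. *Rpl13a*, overlapped on the same strand over 59.3%, was at 118, 228 and 303 CPM with vehicle and 59.7, 65.2 and 74.9 CPM with RGS (log2 fold change -1.70 ± 0.243). Without the 3 lowest members, the median log2 fold change over the remaining 78 was -1.02.

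Levels differ widely between members even per mRNA length. Over the 43 members with at most 50% of their 100-base windows in another gene and under 10% of the mRNA overlapped, the SD of the log2 level per kilobase was 1.34 to 1.70 in the 6 tumors. *Rps29* was the lowest of these in every tumor (11.4 to 64.2 CPM per kilobase) and *Rpl8* the highest in 5, at 1477 to 2561 CPM per kilobase there. *Rpl12* was above it in vehicle tumor 9, at 3526 CPM per kilobase. The lowest and the highest member were thus nearly the same in both groups.

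Properties that the naming rule did not use were set beside the fold change. Across the 81 members, Spearman's rho with the log2 fold change was -0.13 for mRNA length, -0.25 for mean log2 CPM (Pearson's r of -0.40) and -0.04 for the percent of 100-base windows found in another gene. These are correlations across genes of the same libraries and are given as descriptions. Members lower with RGS numbered 13 of 22 among the shortest mRNAs (271 to 526 bases) and 18 of 20 among the longest (977 to 3706 bases). All 13 members with at most 10% of windows copied were lower (median -1.18), as were 27 of 37 with 10 to 50% copied (median -0.98) and 22 of 31 with more (median -0.95). Ribosomal protein mRNAs are short and abundant, so other protein-coding genes of like length and level were described alongside. Of 1604 others with an mRNA of 474 to 1310 bases, 19.7% were lower and 13.7% higher (median -0.16). Of 231 others at or above the median member's mean CPM, 19.0% were lower and 44.6% higher (median 0.25). The median mRNA of these 231 was 2193 bases, and mitochondrial genome transcripts were not left out of them.

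*Rack1* and *Fau*, ribosomal proteins with other names, were described separately. *Rack1*, the scaffold protein on the head of the small subunit, was at 2258, 3735 and 3977 CPM in vehicle tumors 7, 8 and 9 and 1131, 1114 and 1158 CPM in RGS tumors 10, 11 and 12 (log2 fold change -1.55 ± 0.185, adjusted p = 3.98e-06 by edgeR). *Fau*, which encodes a ubiquitin-like protein fused to a small subunit protein, was at 199.98, 326 and 469 CPM with vehicle and 166, 151 and 244 CPM with RGS. Its log2 fold change was -0.83 ± 0.239 (adjusted p = 0.0123), and the call was lost without vehicle tumor 9 (-0.49), RGS tumor 10 (-0.75) or RGS tumor 11 (-0.70) and with DESeq2.

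Other mRNAs with a TOP tract were lower in part. Of 17 such genes, mostly elongation and initiation factors, 11 were lower (64.7%, against 16.5% of all genes) and 0 higher (against 16.3%), with a median log2 fold change of -0.73. *Eef1a1*, the factor that brings aminoacyl-tRNA to the ribosome, was at 13871 to 19722 CPM with vehicle and 7554 to 8089 CPM with RGS (log2 fold change -1.19 ± 0.158, adjusted p = 1.29e-05 by edgeR). *Eif3e* was at 528 to 933 CPM with vehicle and 239 to 280 CPM with RGS (log2 fold change -1.56 ± 0.186), and *Hnrnpa1* at 468 to 515 CPM with vehicle and 185 to 212 CPM with RGS (log2 fold change -1.33 ± 0.148). *Eef2*, the translocase, was at 3812 to 4936 CPM with vehicle and 4486 to 4924 CPM with RGS (log2 fold change 0.15 ± 0.148, adjusted p = 0.472), and *Pabpc1*, the poly(A) binding protein, at 2174 to 2859 and 2846 to 3036 CPM (log2 fold change 0.26 ± 0.149, adjusted p = 0.202). Both overlapped between groups, and without vehicle tumor 7 both passed the test as higher (0.27 and 0.38), as they did with limma voom (0.23 and 0.31).

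Genes that act on ribosomal protein synthesis were described from 3 lists. Of 14 tested genes of TOP mRNA control, 3 were lower (21.4%, against 16.5% of all genes) and 4 higher (28.6%, against 16.3%), with a median log2 fold change of -0.12. *Larp1*, which binds the TOP tract, was at 197, 139 and 133 CPM in vehicle tumors 7, 8 and 9 and 264, 265 and 284 CPM in RGS tumors 10, 11 and 12, without overlap (log2 fold change 0.79 ± 0.168, adjusted p = 1.28e-03 by edgeR). *Larp4*, which stabilizes ribosomal protein mRNAs through their poly(A) tails, was at 95.8 to 109 CPM with vehicle and 50.7 to 59.995 CPM with RGS (log2 fold change -0.87 ± 0.162), and *Cnbp*, another TOP mRNA binder, at 732 to 1095 and 391 to 423 CPM (log2 fold change -1.23 ± 0.167). Of 12 tested chaperones and importers of ribosomal proteins, 5 were lower (41.7%) and 1 higher (8.33%), with a median of -0.32. *Ipo7*, which carries ribosomal proteins into the nucleus, was at 545 to 669 CPM with vehicle and 190 to 222 CPM with RGS (log2 fold change -1.57 ± 0.154, adjusted p = 3.99e-07). *Aamp*, the 1 gene of this list called higher, was at 140 to 173 CPM with vehicle and 236 to 255 CPM with RGS (log2 fold change 0.64 ± 0.150). Of 9 tested transcription factors linked to ribosomal protein genes, 3 were lower (33.3%) and 0 higher (median -0.25). *Myc*, a driver of ribosome production, was at 345, 310.1 and 310.2 CPM with vehicle and 127, 151 and 156 CPM with RGS (log2 fold change -1.15 ± 0.152, adjusted p = 1.27e-05).

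Mitochondria have their own ribosomes, whose proteins are also encoded in the nucleus. Of 75 tested mitochondrial ribosomal protein genes, 18 were lower (24.0%, against 16.5% of all genes), 2 higher (2.67%, against 16.3%) and 55 not called, with a median log2 fold change of -0.16. Their share of counts was 0.304% ± 0.0607 with vehicle and 0.221% ± 0.0181 with RGS (exact permutation p = 0.2), and the groups overlapped. Counts of cytosolic over mitochondrial ribosomal protein genes were 23.8, 26.5 and 28.6 in vehicle tumors 7, 8 and 9 and 15.4, 15.0 and 15.3 in RGS tumors 10, 11 and 12. The ratio was lower in 3 of 3 RGS tumors, with a log2 difference of -0.78 (exact permutation p = 0.1, the smallest possible). Mitochondrial genome transcripts took the opposite direction: 15 of 23 tested were higher and 0 lower (median 1.70), and their share was 2.13%, 2.23% and 3.20% with vehicle and 5.60%, 7.25% and 8.22% with RGS. With these transcripts left out of the total, the difference in the cytosolic ribosomal protein share was -4.67 percentage points, against -4.72 with them.

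**Figure D5:**
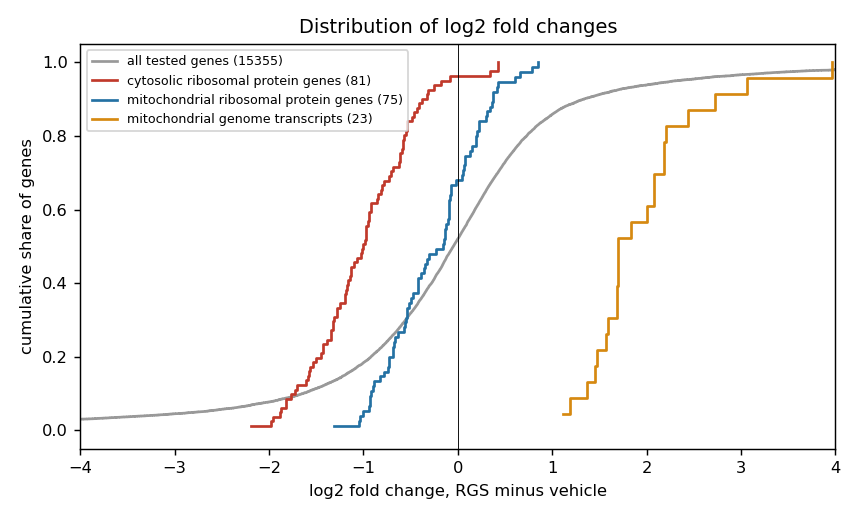
Cumulative share of genes (y axis) by log2 fold change, RGS minus vehicle (x axis), for all 15355 tested genes (gray), the 81 cytosolic ribosomal protein genes (red), 75 mitochondrial ribosomal protein genes (blue) and 23 mitochondrial genome transcripts (orange). The red curve lies left of 0 except for 3 genes, with its median at -1.01, against -0.16 for the blue, 1.70 for the orange and -0.05 for the gray curve.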

How the data were processed

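Per the labels, tumors were kept in RNAlater and RNA was sequenced as paired-end reads. The submitters' processing notes name cutadapt 1.18, FastQC 0.11.7, STAR 2.7.1a, featureCounts 1.6.4 and mm10. The authors deposited 1 table of raw counts, with a row per gene and a column per tumor. Whether strand was used, and what was done with reads matching more than 1 gene, is not given in the sources used here. Gene positions are GRCm38: 38971 of 40166 identifiers are in GENCODE M21, all with the same start and end, and all 83 members matched, 79 of them with the identifier version. Annotation of transcript lengths, overlaps and 100-base windows shared with other genes came from GENCODE M21, and promoters from RefSeq.

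Log2 fold changes are RGS over vehicle from edgeR 4.0.16 in R 4.3.3 (genes whose median count reached 5 in either group, TMM factors between 0.920 and 1.08, quasi-likelihood F test without the robust option, Benjamini-Hochberg over 15355 genes). The SE is the log2 fold change over the square root of F. CPM is scaled by TMM and errors are SDs over 3 tumors. Single values used exact permutation tests, two-sided. Replicates differed by more than counting noise (chi-square per degree of freedom of 16.4 to 101 within groups). The test was checked on counts simulated from its own fitted dispersions, with each gene drawn independently. That check does not cover genes that shift together between tumors of a group, as the members did. DESeq2 1.42.0, limma 3.58.1 voom with quality weights per tumor, other factors, filters and thresholds, and each tumor left out were alternatives. The named genes are the 5 lowest and 5 highest fold changes, the 3 highest mean CPM, a fixed list of 10 members, the paralogs with their parents, and members or genes of other lists named after their values were seen. These are *Rpl12*, *Rps7*, *Rpsa*, *Rpl8*, *Rpl4*, *Rps2*, *Rpl28*, *Rps29*, *Rpl38*, *Rpl41*, *Rps26*, *Rpl13a*, *Rps4x*, *Rpl17*, *Rpl26*, *Rps24* and the genes of the TOP, control, chaperone and transcription lists. Members and lists were chosen with earlier results of these data known.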

Additional observations from a re-analysis of the deposited data

How the results depend on the processing

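No paired analysis was possible because the groups share no replicate numbers. The number of ribosomal protein genes lower with RGS was 60 to 75 over the other tools, scalings, filters, the length offset and thinning, 54 at an adjusted p under 0.01, 41 at a log2 fold change of at least 1 in size, and 53 to 74 without 1 tumor. None was higher under any of these. The stricter thresholds moved the counts over all genes to 1562 lower and 1607 higher (adjusted p under 0.01) and to 1450 and 1168 (2-fold), and leaving out a tumor to 1717 to 2551 lower and 1776 to 2698 higher. Of the 62 members, 53 were called under each of 18 alternative fits. The other 9 were *Rpl10*, *Rpl15*, *Rpl21*, *Rpl35*, *Rpl36a*, *Rpl39*, *Rpl7a*, *Rpl8* and *Rps21*, all lost without at least 1 tumor. Without normalization factors, the median of all genes moved by -0.14 and 62.8% of all calls were lower, against 50.3%, with 70 members lower. The median over members was -1.23 to -0.81 without 1 tumor and the difference in share -5.93 to -3.65 percentage points. The subunit ratio difference was -0.11 to -0.03 without 1 tumor, -0.28 without the 10 most abundant members and -0.54 as a difference of medians. Among the named genes, *Rpl24* turned to -0.34 with voom. Without 1 tumor, the highest value was 0.0881 for *Rplp2* (lowest -0.48) and 0.0318 for *Rpl23* (lowest -0.32), and the lowest was -0.40 for *Rpl36al* (highest 0.92), -0.0067 for *Rps10* (highest 0.65) and -0.39 for *Rpl24* (highest 0.79). The cytosolic to mitochondrial ratio stayed at -0.85 to -0.72 and the paralog ratios kept their direction without 1 tumor, alternatives chosen after seeing the data. The cause of these changes was not tested. With 3 tumors per group, exact tests cannot go below 0.1, and levels under about 2 CPM rest on few counts.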
